A study of Mus musculus with 15 samples.

Results

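Voltage-gated and potassium channel genes were followed across the cell classes of the mouse striatum under 2 antipsychotic drugs. The set was chosen by gene symbol alone: rows named Kcn, Scn, Cacna, Cacnb, Cacng or Hcn with a subunit number, without the pericyte and astrocyte genes Kcnj8 and Kcnj10. It held 114 of the 15932 genes in the deposited table, 111 of them protein coding. They comprised 33 Kv alpha subunits, 9 Kv auxiliary subunits, 11 calcium- and sodium-activated potassium channel subunits, 9 inward rectifiers and 10 two-pore-domain potassium channels. The sodium channels gave 7 alpha and 4 beta subunits. The calcium channels gave 9 alpha1, 4 alpha2delta, 4 beta and 7 gamma subunits, and the HCN channels 4 genes. The 3 other rows were the noncoding RNAs Kcnq1ot1, Kcnd3os and Kcnmb4os2.

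Single-cell RNA sequencing (10x Genomics 3' kit, version 2) was carried out on dissociated striatum of 15 male mice of the inbred strain C57BL/6J. Of these, 5 received haloperidol from implanted pellets, 5 received olanzapine in food and 5 received placebo, for 28 to 29 days. All were bought at 8 weeks of age and habituated for about 1 week. Each mouse was a separate library. Pellet and food cannot be told apart from the drugs they carried.

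After filtering, 5477 cells remained, with 70 to 1172 cells and 212300 to 4231756 unique molecular identifiers (UMIs) per mouse. The 4 mice with the fewest cells (70 to 122) were haloperidol 1 and 2 and olanzapine 1 and 2. Placebo 5 shared 101 of its cell barcodes with placebo 2 and 110 with placebo 3, whereas the other 103 pairs of libraries shared at most 2. In 101 of 101 and 109 of 110 of these pairs both copies lay in the same class, and the copy in placebo 2 or 3 held a median of 3.05 or 3.25 times as many UMIs. Drug comparisons that use placebo mice are therefore given with and without these 211 cells of placebo 5. The deposited class names were checked against marker genes. The summed myelin markers averaged 66587 CPM in the class labelled olig precursor and 1913 CPM in the class labelled oligodendrocyte. Summed precursor markers ran the other way, with 1237 and 7822 CPM. The class named other held endothelial (12560 CPM), pericyte (7994 CPM) and smooth muscle (5065 CPM) markers. Both oligodendrocyte-lineage classes are written below as the class labelled with that name.

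As background, sodium channels open on depolarisation and carry the rising phase of the action potential, and their beta subunits tune gating and surface placement. Voltage-gated calcium channels couple depolarisation to transmitter release and gene expression, and their alpha2delta, beta and gamma subunits act on trafficking and gating. Several gamma subunits are better known as companions of AMPA-type glutamate receptors. Potassium channels repolarise cells and set the resting potential, and the inward rectifiers and Kv4-type currents of striatal projection neurons are known to hold these cells far below threshold.

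Transcripts of this set, which leaves out Kcnj8 and Kcnj10, were most abundant in neurons. The 114 genes together gave 8299 ± 1091 CPM in neurons (SD, n = 15 mice), where CPM is the usual depth-scaled unit, taken from the UMIs summed over a mouse's cells of that class. The class labelled oligodendrocyte followed with 3176 ± 388 CPM (n = 11) and astrocytes with 1904 ± 238 CPM (n = 15). The class labelled olig precursor gave 1107 ± 330 CPM (n = 9), neuroblasts 1097 ± 158 CPM (n = 14), the class other 578 ± 160 CPM (n = 12) and microglia 349 ± 53.0 CPM (n = 13). The class labelled olig precursor and the neuroblasts did not differ beyond their spread. Of the 114 genes, 78 reached a mean of 20 CPM in at least 1 class and 36 did not, of which 13 stayed under 5 CPM in every class, among them Hcn4 and Kcnn4. The class with the highest mean was the neuron class for 74 genes, the class labelled oligodendrocyte for 16, astrocytes for 7 and the class labelled olig precursor for 7. It was microglia for 5, the class other for 4 and neuroblasts for 1. The classes were made by clustering these same cells, so their levels are described without a test. UMIs count 3' ends and are not scaled by transcript length.

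**Figure D1:**
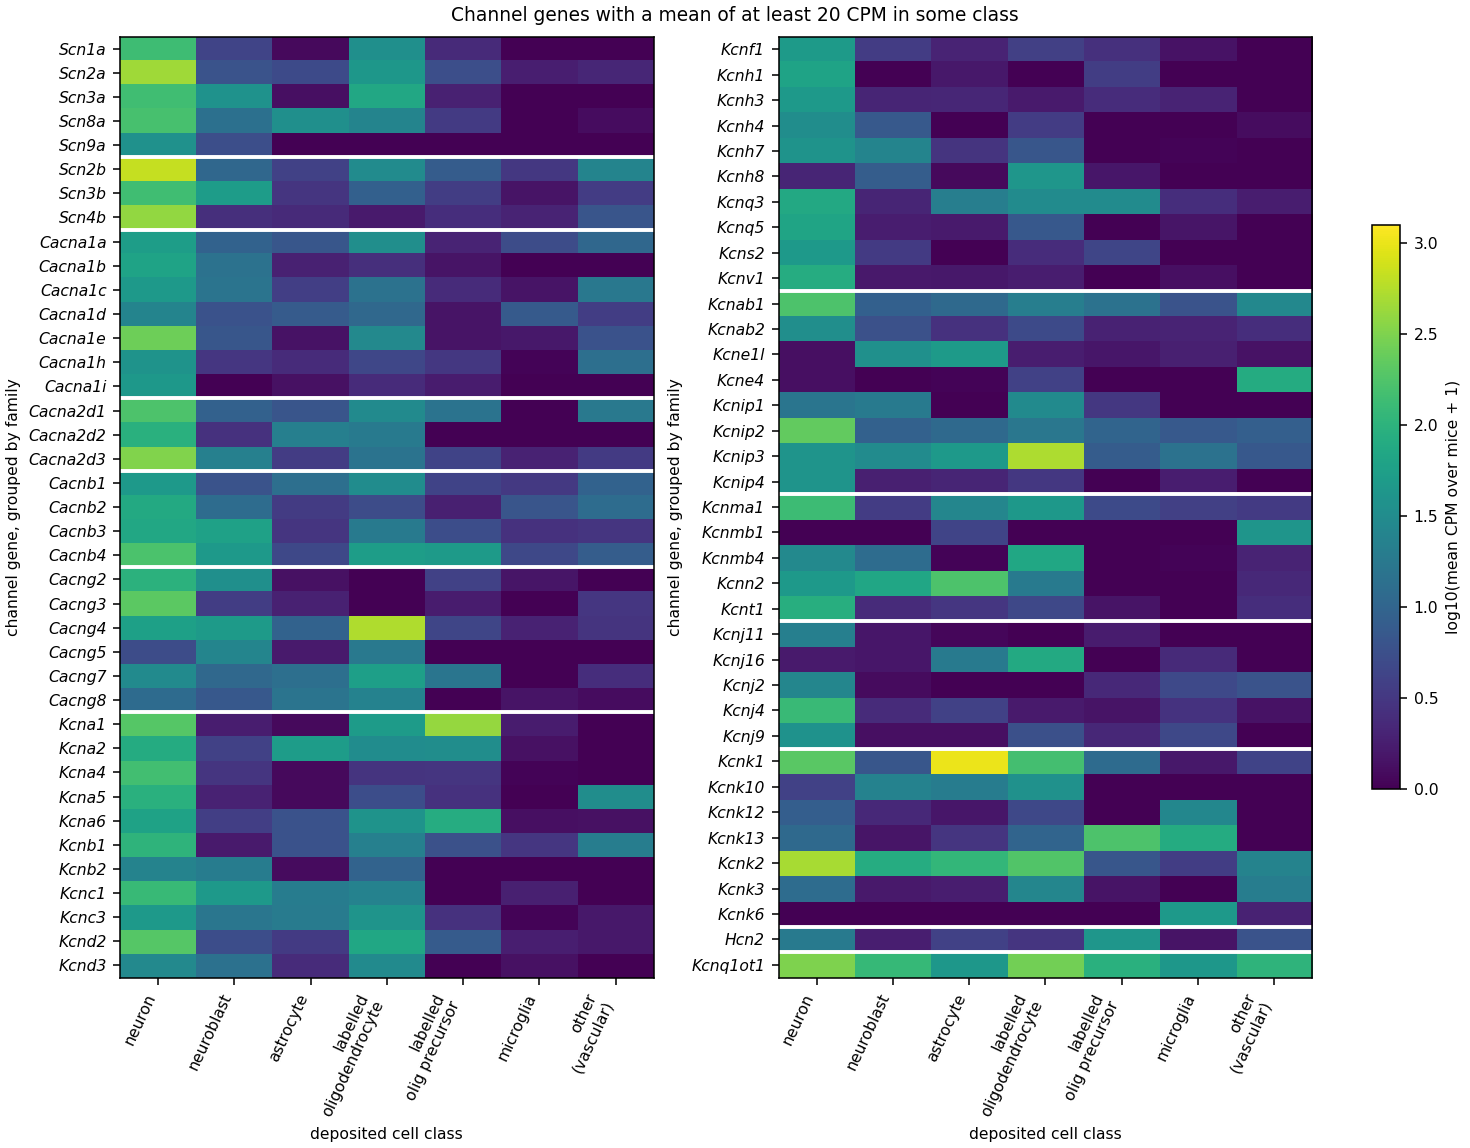
Mean level of 76 of the 78 channel genes that reached 20 CPM in at least 1 class, as log10(mean CPM over mice + 1), by deposited cell class and grouped by family (white lines). The neuron column is the brightest for most genes, whereas Kcnk1 peaks in astrocytes, Cacng4 and Kcnip3 in the class labelled oligodendrocyte, and Kcna1 and Kcnk13 in the class labelled olig precursor.

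Among the sodium channel genes, Scn2b had the highest level of the whole set in neurons, at 678 ± 197 CPM, with a lowest, median and highest mouse of 320, 663 and 1039 CPM. Scn2b encodes a beta subunit linked to the alpha subunit by a disulfide bond. Scn4b, the beta subunit associated with resurgent sodium current, averaged 400 ± 160 CPM in neurons (164, 355 and 725 CPM), against 5.49 CPM in the next class, other. Scn2a, the main alpha subunit of many unmyelinated axons, had the smallest SD relative to its mean among the 20 most abundant genes, at 458 ± 60.9 CPM (386, 451 and 583 CPM). Scn8a, Scn3a and Scn1a averaged 155, 142 and 136 CPM in neurons, which lay within their spread of each other. Summed sodium channel alpha subunits came to 932 ± 142 CPM in neurons, 174 ± 60.1 CPM in the class labelled oligodendrocyte and 0.824 ± 2.73 CPM in microglia.

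Of the calcium channel genes, Cacna2d3, an alpha2delta subunit, was the most abundant in neurons at 328 ± 98.7 CPM (177, 353 and 471 CPM). Cacna1e, which encodes the pore of R-type channels, followed with 261 ± 79.6 CPM (119, 250 and 441 CPM). The L-type pore genes Cacna1c and Cacna1d were lower, at 45.9 and 24.0 CPM. Cacnb4 led the beta subunits with 168 ± 39.5 CPM. The gamma subunits split between lineages. Cacng3, a companion of AMPA receptors, averaged 208 ± 49.6 CPM in neurons and 2.65 CPM in the next class, neuroblasts. Cacng4 averaged 540 ± 149 CPM in the class labelled oligodendrocyte, with a lowest, median and highest mouse of 393, 551 and 903 CPM, against 56.6 ± 21.4 CPM in neurons. Its highest mouse in neurons thus lay below its lowest mouse in that class. Cacng7 (55.3 CPM) and Cacng5 (17.1 CPM) were also present in the class labelled oligodendrocyte, and Cacng5 was highest in neuroblasts, at 24.8 ± 14.7 CPM.

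Neuronal potassium channel genes were led by Kcnk2, which encodes the mechanosensitive two-pore channel TREK-1, at 491 ± 152 CPM (296, 466 and 906 CPM). Kcnip2 averaged 228 ± 62.9 CPM and Kcnd2 192 ± 38.2 CPM. Kcnd2 encodes the Kv4.2 pore of the A-type current, and Kcnip2 a calcium-binding subunit that assembles with it. Among the potassium channel genes that averaged at most 3.00 CPM in every class but neurons were the following 3. Kcna4 (Kv1.4) averaged 145 ± 61.0 CPM and 2.02 CPM in the next class. Kcnj4, an inward rectifier of the Kir2 family, averaged 126 ± 38.1 CPM and 3.00 CPM in the next class. Kcnv1, a silent Kv subunit that modifies other Kv channels, averaged 81.4 ± 32.0 CPM and 0.792 CPM in the next class. The M-current genes Kcnq3 and Kcnq5 averaged 72.6 and 62.8 CPM in neurons. HCN genes were low, with a sum of 56.2 ± 24.8 CPM in neurons and 41.4 ± 31.6 CPM in the class labelled olig precursor, where all of it came from Hcn2.

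Some channel genes had their highest mean outside neurons. In astrocytes Kcnk1, the two-pore channel TWIK-1, averaged 1025 ± 208 CPM, with a lowest, median and highest mouse of 679, 1055 and 1360 CPM, against 204 ± 84.1 CPM in neurons. The groups of mice did not overlap, since the highest neuron value was 471 CPM. Kcnk1 thereby accounted for most of the 1904 CPM of the set in astrocytes. The set leaves out the astrocyte gene Kcnj10, so this is not a share of all potassium channel transcripts. Kcnn2, a small-conductance calcium-activated channel, averaged 172 ± 39.4 CPM in astrocytes, 67.6 ± 19.6 CPM in neuroblasts and 47.2 ± 25.6 CPM in neurons. Kcne1l, a small accessory subunit, averaged 48.0 ± 25.8 CPM in astrocytes and 34.8 CPM in neuroblasts, a difference within the spread. In the class labelled oligodendrocyte, Kcnip3 (the calcium sensor also known as DREAM) averaged 529 ± 75.0 CPM, against 45.6 ± 19.8 CPM in astrocytes. Kcnj16 (Kir5.1, 76.3 CPM), Kcnmb4 (a BK channel beta subunit, 68.8 CPM) and Kcnh8 (a member of the ether-a-go-go family, 41.9 CPM) also peaked there.

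In the class labelled olig precursor, which carried the myelin markers, Kcna1 (Kv1.1) averaged 409 ± 64.3 CPM, with a lowest, median and highest mouse of 279, 427 and 490 CPM. In neurons it averaged 192 ± 89.2 CPM (69.3, 162 and 350 CPM), so that single mice overlapped. Kcna6 (Kv1.6) showed 81.6 ± 31.8 CPM there and 60.0 ± 42.7 CPM in neurons, which overlapped widely. Kcnk13 (THIK-1), a two-pore channel known from microglia, averaged 172 ± 106 CPM in the class labelled olig precursor and 78.9 ± 32.7 CPM in microglia. Microglia also held Kcnk6 at 47.0 ± 32.6 CPM (0 in 1 of 13 mice), against 0.958 CPM in the next class, and Kcnk12, the THIK-2 gene, at 26.0 ± 20.3 CPM. In the class other, Kcne4, an inhibitory accessory subunit of Kv channels, averaged 80.6 ± 63.1 CPM (10.0, 52.8 and 221 CPM), and Kcnmb1, the BK beta subunit of smooth muscle, 40.0 ± 19.5 CPM. The noncoding RNA Kcnq1ot1, which is transcribed antisense to Kcnq1 and acts in imprinting, was above 50 CPM in 5 classes, the largest number in the set. It averaged 313 ± 71.1 CPM in neurons and 273 ± 64.8 CPM in the class labelled oligodendrocyte, within their spread. Whether reads were counted by strand is not given in the sources used here.

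**Figure D2:**
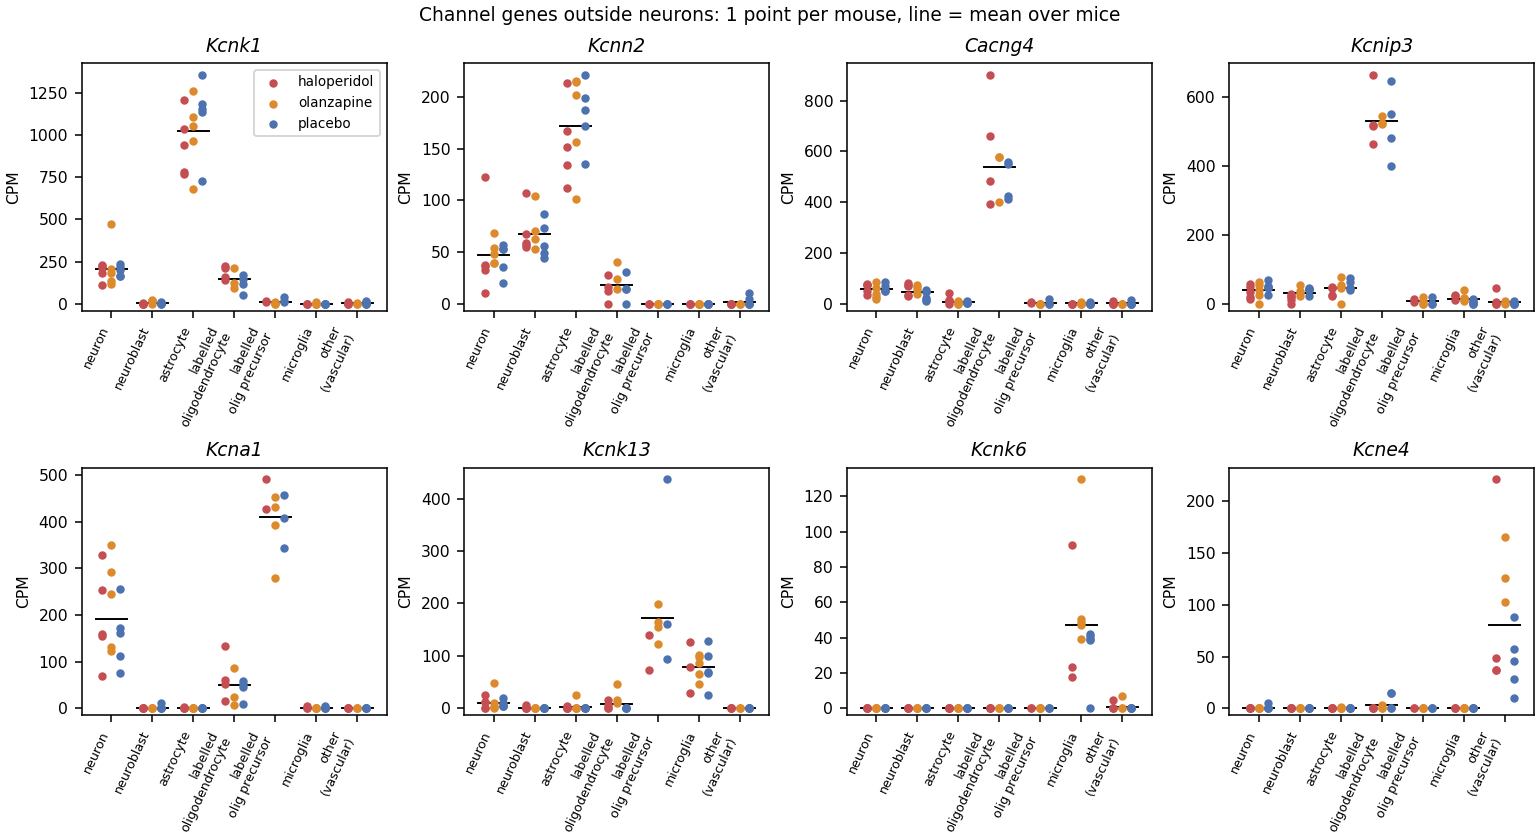
CPM per mouse of 8 channel genes that were highest outside neurons or, for Kcna1, shared with neurons, by deposited cell class. Points are mice coloured by drug and lines are means over mice; Kcnk1 in astrocytes lies between 679 and 1360 CPM, above every neuron value.

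The upstream sequence of genes with these class patterns was read from RefSeq promoters (assembly GRCm38.p6), which listed 79 of the 114 genes. The 150 bases before the start are shown for the neuronal genes Kcnip2 and Kcnj4, for Kcnk13 of the class labelled olig precursor and microglia, and for Kcnmb1 of the class other, since these windows overlap no exon in GENCODE vM21. They lie at chr19:45816064-45816213 (minus strand), chr15:79505242-79505391 (minus), chr12:99964349-99964498 (plus) and chr11:33962863-33963012 (plus). Each runs 5' to 3' on the strand of its gene, and capitals mark the letters GGGCGG, the core of the GC box, or their reverse complement.
Kcnip2: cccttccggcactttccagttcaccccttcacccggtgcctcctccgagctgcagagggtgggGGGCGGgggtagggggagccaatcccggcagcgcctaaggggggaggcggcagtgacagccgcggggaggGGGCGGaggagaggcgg
Kcnj4: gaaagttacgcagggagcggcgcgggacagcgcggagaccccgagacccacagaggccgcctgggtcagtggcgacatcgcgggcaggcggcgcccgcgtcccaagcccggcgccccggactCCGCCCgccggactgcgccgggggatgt
Kcnk13: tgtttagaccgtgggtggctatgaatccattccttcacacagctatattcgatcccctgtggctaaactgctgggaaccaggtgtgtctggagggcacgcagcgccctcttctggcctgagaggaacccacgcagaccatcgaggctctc
Kcnmb1: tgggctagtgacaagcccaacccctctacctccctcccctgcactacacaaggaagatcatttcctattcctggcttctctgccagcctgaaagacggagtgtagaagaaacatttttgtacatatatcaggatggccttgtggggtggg
Kcnip2 held this motif 2 times and Kcnj4 1 time in the window, and Kcnk13 and Kcnmb1 did not hold it. The windows held 11, 23, 6 and 1 CG dinucleotides in the same order. Over the 250 bases before the start, GGGCGG occurred on either strand in 49 of 79 channel genes (62.0%), against 9555 of 27025 genes in the table (35.4%). The letters TATAAA occurred in 4 of 79 (Kcnj9, Scn2a, Kcnj16 and Cacna1d; 5.06%), against 14.3% of all genes. The motifs cannot overlap each other. A match describes the letters only.

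Within the neuron class, many channel genes had different levels in projection neuron-like and interneuron-like cells. The 959 neurons were clustered anew without the channel genes, so the clusters did not use them. Clusters were named from markers by a rule set after they were seen. Of these cells 520 were projection neuron-like (220 direct-pathway-like with Drd1, Pdyn and Tac1, 212 indirect-pathway-like with Drd2, Adora2a and Penk, and 88 with shared markers), and 65 cells from 12 mice were interneuron-like. Not every marker of a list was enriched. The enriched ones were 3 of 5 (direct), 4 of 5 (indirect) and 4 of 8 (shared), and 3 to 5 of 10 in the interneuron-like clusters. Counts were pooled over mice because only 1 mouse had 10 interneuron-like cells, so intervals (exact Poisson, 95%) cover counting error only and no test was made. Of the 114 genes, 42 had a higher pooled level in interneuron-like cells, 63 in projection neuron-like cells, and 9 were at 0 in both. The pools held 473911 UMIs (interneuron-like) and 2237555 UMIs (projection neuron-like), and the same split over all genes is not given. The counts are therefore not a trait set apart from other genes.

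Among the Kv3 genes, Kcnc1, Kcnc2 and Kcnc4 were higher in interneuron-like cells. Kcnc2 (Kv3.2) reached 80.2 CPM (interval 56.7 to 110) in interneuron-like cells and 1.34 CPM (0.276 to 3.92) in projection neuron-like cells. Kcnc1 (Kv3.1), which supports fast spiking, reached 268 CPM (223 to 319) and 59.0 CPM (49.4 to 70.0). Kcnc4 (Kv3.4) had 42.2 CPM from 20 UMIs, and 0 UMIs in projection neuron-like cells (upper bound 1.65 CPM). Kcns3, a silent subunit, had 50.6 CPM and likewise 0 UMIs, as did Kcnmb2 with 35.9 CPM. Kcnd3 (Kv4.3) stood at 76.0 and 13.4 CPM. Scn4b had 0 UMIs in interneuron-like cells (upper bound 7.78 CPM) and 624 CPM (592 to 658) in projection neuron-like cells. Kcnj4 (16.9 and 181 CPM), Kcnip2 (40.1 and 314 CPM), Kcnh3 (2.11 and 65.7 CPM), Cacna2d3 (52.8 and 362 CPM) and Kcnk2 (137 and 577 CPM) were likewise lower in interneuron-like cells. These cells are the clusters led by Npy, Pthlh and Nos1 only, and other neuron clusters stayed unnamed. In an unnamed cluster led by Ecel1 and Slc5a7 (12 cells), Cacna2d3 stood at 340 CPM (226 to 491). Kcnk2 (48.5 CPM), Kcnip2 (12.1 CPM), Kcnj4 and Kcnh3 (0 UMIs each) were low there. Only 2 interneuron-like and 40 projection neuron-like cells were among the shared cells of placebo 5. Without them Kcnc1 stood at 271 and 58.9 CPM and Scn4b at 0 and 629 CPM.

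The 3 interneuron-like clusters differed in their Kv3 genes. The cluster led by Pthlh and Pvalb (21 cells from 8 mice) held Kcnc1 at 834 CPM (682 to 1010) and Scn1a at 620 CPM. It held Kcnc2 at 15.9 CPM from 2 UMIs. In the cluster led by Npy and Sst (26 cells from 10 mice), Kcnc2 stood at 150 CPM (90.5 to 235) and Kcnc1 at 103 CPM. In the cluster led by Nos1 (18 cells from 8 mice), Kcnc2 was at 76.7 CPM and Kcnc1 at 40.6 CPM. Kcnj3, which encodes the G-protein-gated channel GIRK1, gave 167 CPM in the cluster led by Pthlh and 0 UMIs in the cluster led by Npy, where 3 UMIs would be 23.7 CPM.

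Direct- and indirect-pathway-like cells could be compared within 6 mice that had at least 10 cells of both. Kcnk2 averaged 465 ± 131 CPM in direct-pathway-like cells and 862 ± 176 CPM in indirect-pathway-like cells. The direct-pathway-like values were 419 and 670 CPM in haloperidol 3 and 4, 376 and 342 CPM in olanzapine 4 and 5, and 399 and 583 CPM in placebo 2 and 5. The indirect-pathway-like values of the same mice were 840, 1086, 598, 732, 966 and 948 CPM. Kcnk2 was thus higher in the indirect-pathway-like cells of 6 of 6 mice, and of 5 of 5 once placebo 5, which has too few cells without the shared ones, is left out. Cacna2d2 averaged 68.3 ± 19.5 CPM in direct- and 142 ± 50.7 CPM in indirect-pathway-like cells, and was higher in indirect-pathway-like cells in 5 of 6 mice. Scn2a was higher in direct-pathway-like cells in 5 of 6 mice (733 ± 144 against 517 ± 111 CPM), and so was Kcnj2, which encodes Kir2.1, in 5 of 6 (61.0 ± 22.1 against 26.4 ± 19.3 CPM). Scn4b averaged 840 ± 148 CPM in direct- and 833 ± 236 CPM in indirect-pathway-like cells, within the spread, and was higher in direct-pathway-like cells in 3 of 6 mice. No test was made over these 6 mice, which come from all 3 groups. The genes named here were selected from the channel genes without a stated rule. How many other genes were higher on the same side in as many mice is not given. The direction of the named genes is therefore not shown to differ from that of other genes.

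**Figure D3:**
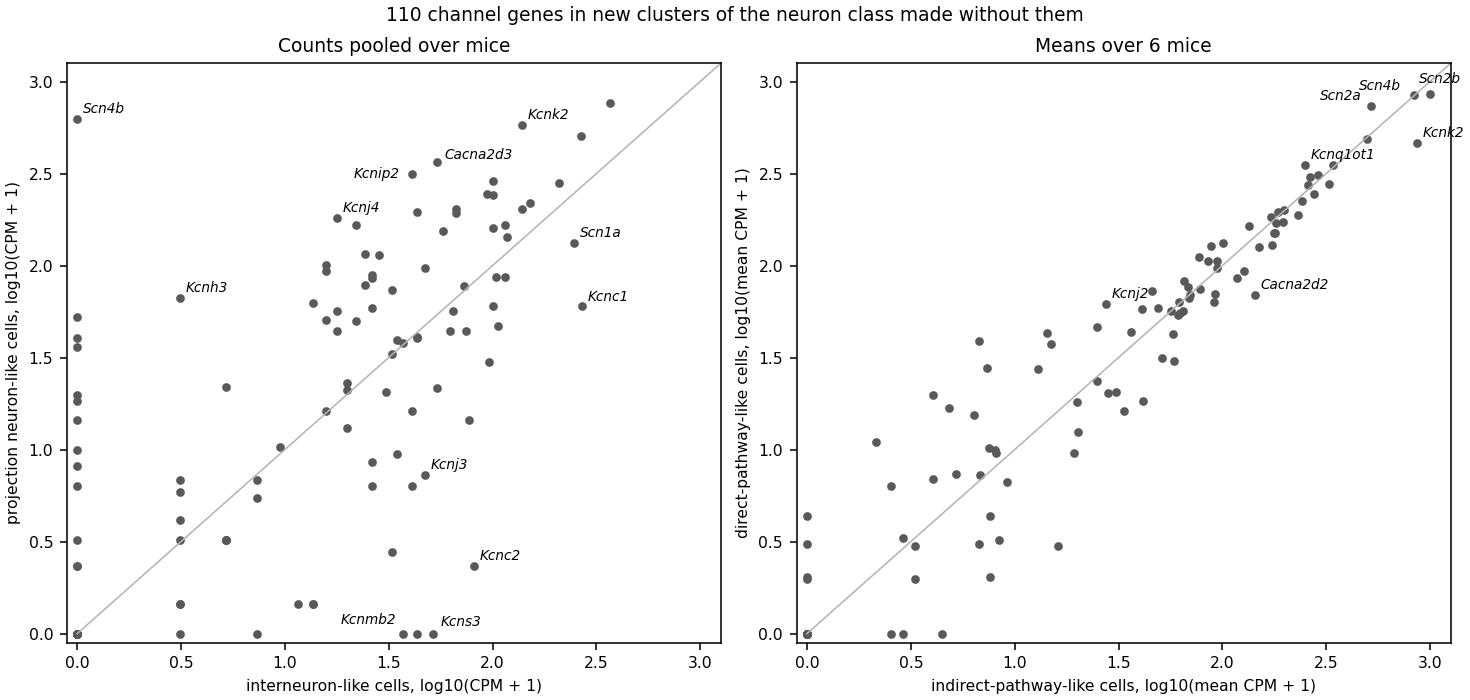
Levels of 110 of the 114 channel genes in new clusters of the neuron class, as log10(CPM + 1). Left, interneuron-like against projection neuron-like cells, counts pooled over mice; right, indirect- against direct-pathway-like cells, means over 6 mice. Points on the grey line are equal. Scn4b sits at 0 in interneuron-like cells, and on the right Kcnk2 lies off the line, higher in indirect-pathway-like cells.

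Drug effects were tested on UMIs summed per mouse and class. A low-count filter left 79 pairs of channel gene and class, 52 of them in neurons, and 58 of the 114 genes were tested in no class. Those 58 were too sparse to test, which says nothing about their response. In sum, the channel genes gave 8538 ± 581 CPM in neurons of haloperidol mice, 8413 ± 1480 CPM in olanzapine mice and 7945 ± 1179 CPM in placebo mice (n = 5 each). The groups overlapped. The number of neurons per mouse was 62.2 ± 60.9 in haloperidol mice, 79.0 ± 60.0 in olanzapine mice and 50.6 ± 23.4 in placebo mice. The median UMIs per neuron averaged 3393 ± 241, 3209 ± 489 and 3039 ± 1126 in the same groups (n = 5 each), and both measures overlapped. The share of projection neuron-like cells among neurons was 49.0% ± 15.3 in haloperidol mice, 48.4% ± 29.2 in olanzapine mice and 60.3% ± 12.5 in placebo mice. It was lowest in olanzapine 3, at 10.4%. Its part in the results below was not tested beyond the fit to projection neuron-like cells alone. The comparisons of haloperidol and of olanzapine with placebo share the 5 placebo mice, so their values are given side by side and not counted together.

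No channel gene passed the test for haloperidol against placebo. Of 74 pairs tested, 0 passed an adjusted p of 0.05 (edgeR quasi-likelihood test), where 0.00972% of all gene and class pairs passed. By DESeq2 the count was also 0. At an unadjusted p under 0.05 there was 1 pair, against 3.99% of all pairs. In neurons 37 of 52 genes had a positive log2 fold change, against 52.1% of all genes tested there. Their median was 0.10, against 0.01 for all genes, and the median standard error of a single gene was 0.33. The 5 sodium channel alpha subunits tested all had positive values, with a median of 0.33, and 5 of 6 calcium channel alpha1 subunits did, with a median of 0.29. The Kv auxiliary subunits (2 of 3 positive, median 0.30) and the calcium- and sodium-activated potassium channels (2 of 3, 0.30) had similar medians. Medians just below 0 were those of the sodium channel beta (2 of 4 positive, -0.04), alpha2delta (1 of 3, -0.02) and gamma subunits (1 of 3, -0.03). The 17 Kv alpha subunits had a median of 0.09, with 13 positive. In neurons 0 channel genes had every haloperidol mouse above or below every placebo mouse, where 0.564% of all genes lay above and 0.248% below.

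The smallest p belonged to Kcnq5, an M-current subunit, in neurons. It had 65.4, 50.4, 84.3, 75.4 and 109 CPM in haloperidol mice, against 57.5, 58.8, 40.4, 28.6 and 62.8 CPM in placebo mice. Haloperidol 1, 3, 4 and 5 lay above every placebo mouse and haloperidol 2 among them (log2 fold change 0.63 ± 0.31 SE, adjusted p = 1.00 by edgeR, unadjusted 0.0485). Without its shared cells placebo 5 stood at 91.7 CPM, and the log2 fold change was 0.51. Scn1a, the sodium channel alpha subunit of fast-spiking interneurons, had 139, 214, 152, 214 and 129 CPM in haloperidol mice, against 106, 176, 60.6, 115 and 106 CPM in placebo mice. Every haloperidol mouse was above the other placebo mice, but placebo 2 lay above 3 of the haloperidol mice. Cacna1a, the P/Q-type pore, had 147, 75.6, 37.0, 42.2 and 59.4 CPM in haloperidol mice, against 39.8, 37.4, 20.2, 33.4 and 43.5 CPM in placebo mice, with haloperidol 1 highest. The log2 fold changes of Scn1a and Cacna1a were 0.56 ± 0.28 and 0.76 ± 0.41, and 0.58 and 0.88 without the shared cells. That of Cacna1a was 0.31 without haloperidol 1, and that of Scn1a was 0.18 in projection neuron-like cells alone. In astrocytes all 7 channel genes tested had negative values, against 48.3% of genes with a positive one, and Kcnip3 had the largest, at -0.56 ± 0.33. In the class labelled oligodendrocyte 6 of 8 were positive, against 50.4% of genes. Without the shared cells of placebo 5 the count of calls was again 0 and the neuronal median 0.11. Without placebo 4 that median was -0.03, so its sign rests on that mouse.

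No channel gene passed the test for olanzapine against placebo either. Of 79 pairs, 0 passed an adjusted p of 0.05 by edgeR, where 0.043% of all pairs passed, and 0 by DESeq2. At an unadjusted p under 0.05 there were 5, against 4.14% of all pairs. In neurons 36 of 52 genes had a positive log2 fold change, against 52.7% of all genes, with a median of 0.08 against 0.02. In the class labelled oligodendrocyte all 8 tested genes had positive values, with a median of 0.38, against 49.6% of genes. In neuroblasts 2 of 2 were positive (median 0.22), against 48.3% of genes, and in the class other 1 of 2 (median 0.50), against 49.5%. Astrocytes, microglia and the class labelled olig precursor leaned the opposite way. In astrocytes 1 of 7 was positive (median -0.16), against 45.7% of genes, in microglia 0 of 3 (median -0.08), against 48.5%, and in the class labelled olig precursor 1 of 5 (median -0.26), against 50.6%. Without the 4 mice with the fewest cells the neuronal median was -0.07, in projection neuron-like cells it was -0.08, with doublets kept -0.07, with at most 10% mitochondrial UMIs -0.01 and without placebo 4 -0.06. Without the shared cells of placebo 5 it was 0.06.

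The smallest p was that of Kcne4 in the class other. It had 125, 165 and 103 CPM in olanzapine 3, 4 and 5, against 28.7, 10.0, 56.9, 88.4 and 45.4 CPM in placebo mice. Every olanzapine mouse lay above every placebo mouse, which was so for 4.01% of genes in that class. The log2 fold change was 1.57 ± 0.50 (SE), with an adjusted p of 0.285 by edgeR. The counts behind it were small, 9 to 37 UMIs in olanzapine mice and 2 to 11 in placebo mice. Kcne4 passed the threshold in 1 setting, without the filter on low counts (adjusted p = 0.0206), and without the shared cells its log2 fold change was 1.45. In haloperidol mice it had 221, 37.0, 36.7 and 48.7 CPM, so that only haloperidol 2 stood above the placebo mice. The summed smooth muscle markers of the same class were also higher in olanzapine than in placebo mice. All 4 were detected, and their sum was 6579 to 11056 CPM in olanzapine mice, 4414 to 7471 CPM in haloperidol mice and 1764 to 4479 CPM in placebo mice. Their median was 5091 CPM in haloperidol and 1961 CPM in placebo mice, where Kcne4 had medians of 42.9 and 45.4 CPM. The part of the smooth muscle markers in the result was not tested.

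Kcnc1 followed, in neurons. It had 394, 109, 118, 101 and 130 CPM in olanzapine mice, against 70.7, 85.5, 20.2, 95.4 and 67.6 CPM in placebo mice. The olanzapine mice all lay above the placebo mice, by a narrow margin apart from olanzapine 1, and 0.609% of genes in neurons did so. The log2 fold change was 1.03 ± 0.37 (adjusted p = 0.999 by edgeR), 1.02 without the shared cells, 0.66 without the 4 mice with the fewest cells, and 0.16 in projection neuron-like cells. In haloperidol mice Kcnc1 had 188, 75.6, 76.9, 93.4 and 198 CPM, with a log2 fold change against placebo of 0.73 ± 0.38 and, in projection neuron-like cells, 0.03. The share of interneuron-like cells, which held more Kcnc1 than projection neuron-like cells, was 7.77% ± 6.87 in haloperidol mice, 6.63% ± 4.52 in olanzapine mice and 4.74% ± 6.12 in placebo mice. The part of these shares in the result was not tested.

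The remaining unadjusted differences in neurons were smaller. Kcnq3, an M-current subunit, had 51.4, 60.4, 63.9, 114 and 112 CPM in olanzapine mice, against 61.9, 42.8, 60.6, 28.6 and 77.3 CPM in placebo mice. Only olanzapine 4 and 5 lay above every placebo mouse (log2 fold change 0.72 ± 0.32, and 0.63 without the shared cells). Scn8a, the sodium channel alpha subunit of nodes and axon initial segments, had 360, 181, 156, 141 and 152 CPM in olanzapine mice, against 141, 128, 111, 76.4 and 135 CPM in placebo mice (0.59 ± 0.28). The groups overlapped at 141 CPM, and the log2 fold change was 0.55 without the shared cells and 0.12 in projection neuron-like cells. In the class labelled oligodendrocyte, Kcnd2 and Kcnq1ot1 had every olanzapine mouse above every placebo mouse, as 2.53% of genes there did. Kcnd2 had 97.3, 142 and 97.5 CPM in olanzapine 3, 4 and 5, against 66.4, 50.8, 58.7 and 94.2 CPM in placebo 1, 3, 4 and 5. Without its shared cells placebo 5 had 126 CPM, which ended that separation. Kcnq1ot1 had 321, 355 and 276 CPM in olanzapine 3, 4 and 5, against 209, 271, 249 and 188 CPM in the same placebo mice (log2 fold change 0.45 ± 0.25, and 0.44 without the shared cells).

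**Figure D4:**
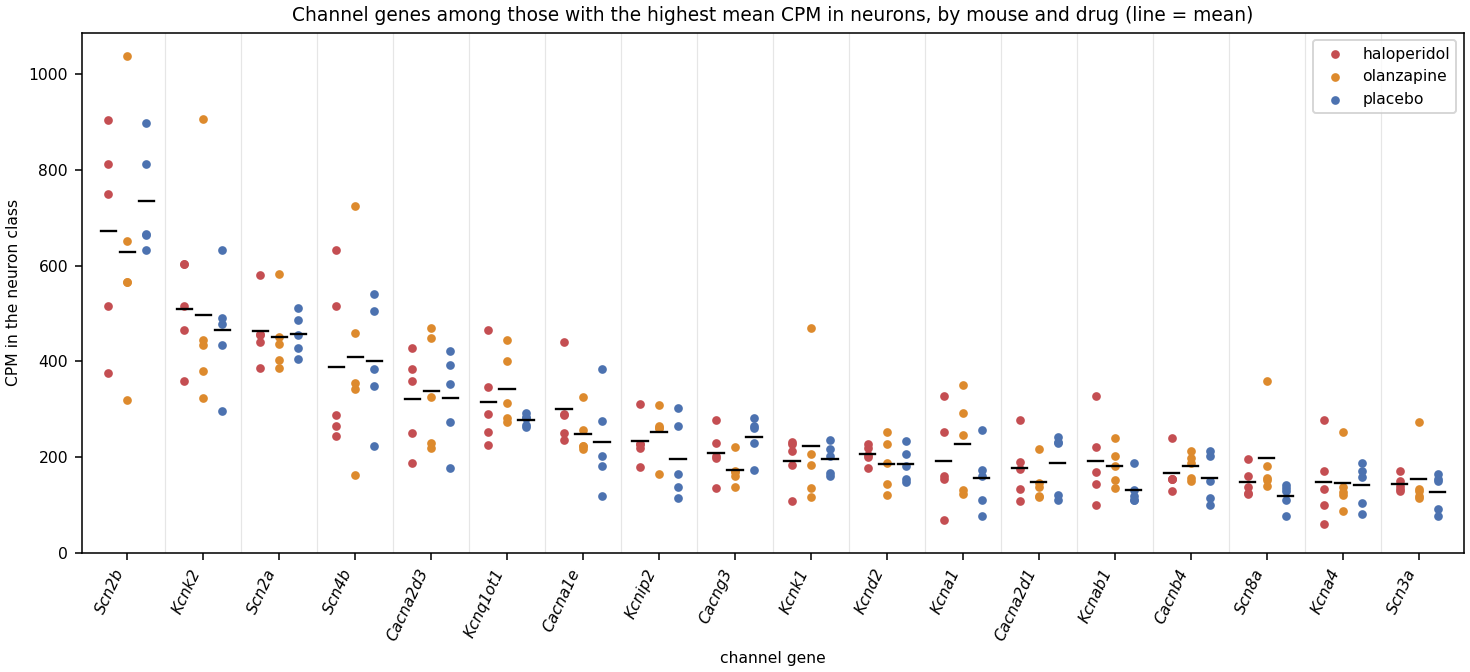
CPM per mouse in the neuron class for 18 of the 20 channel genes with the highest mean there, by drug; points are mice and black lines are group means (n = 5). The groups overlap for all 18 genes, and the separate high points of Kcnk2 and Kcnk1 are olanzapine 2.

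No channel gene passed the test for haloperidol against olanzapine. Of 74 pairs, 0 passed an adjusted p of 0.05 by edgeR (0% of all pairs) and 0 by DESeq2, and 2 had an unadjusted p under 0.05, against 3.47% of all pairs. In neurons 30 of 52 genes had a positive log2 fold change for haloperidol against olanzapine, where 49.4% of all genes did, with a median of 0.04. Kcnd2 in the class labelled oligodendrocyte had 53.1, 63.1, 12.4 and 32.1 CPM in haloperidol 1, 3, 4 and 5, against 97.3, 142 and 97.5 CPM in olanzapine 3, 4 and 5. Every haloperidol mouse lay below every olanzapine mouse, as for 2.62% of genes there, on 1 to 9 and 6 to 27 UMIs per mouse. The log2 fold change was -1.27 ± 0.48 (adjusted p = 0.988 by edgeR).

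Among the most abundant neuronal genes, values under the drugs were close to those under placebo. Scn2a averaged 464 ± 71.1 CPM in haloperidol mice, 452 ± 77.5 CPM in olanzapine mice and 457 ± 42.8 CPM in placebo mice. Kcnk2 averaged 510 ± 103, 498 ± 233 and 466 ± 121 CPM in the same order, and Scn4b 389 ± 175, 409 ± 206 and 401 ± 127 CPM. The log2 fold changes of these genes were between -0.03 and 0.12 in both comparisons with placebo, with standard errors of 0.24 to 0.33. Kcnip2 averaged 233 ± 47.6 CPM in haloperidol mice, 252 ± 52.6 CPM in olanzapine mice and 197 ± 82.6 CPM in placebo mice, with log2 fold changes of 0.30 ± 0.28 and 0.36 ± 0.28. Cacng3 averaged 209 ± 51.9, 172 ± 31.1 and 243 ± 43.0 CPM, with log2 fold changes of -0.22 ± 0.25 and -0.45 ± 0.25. A p that misses the threshold with standard errors of this size does not show that levels were equal.

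**Figure D5:**
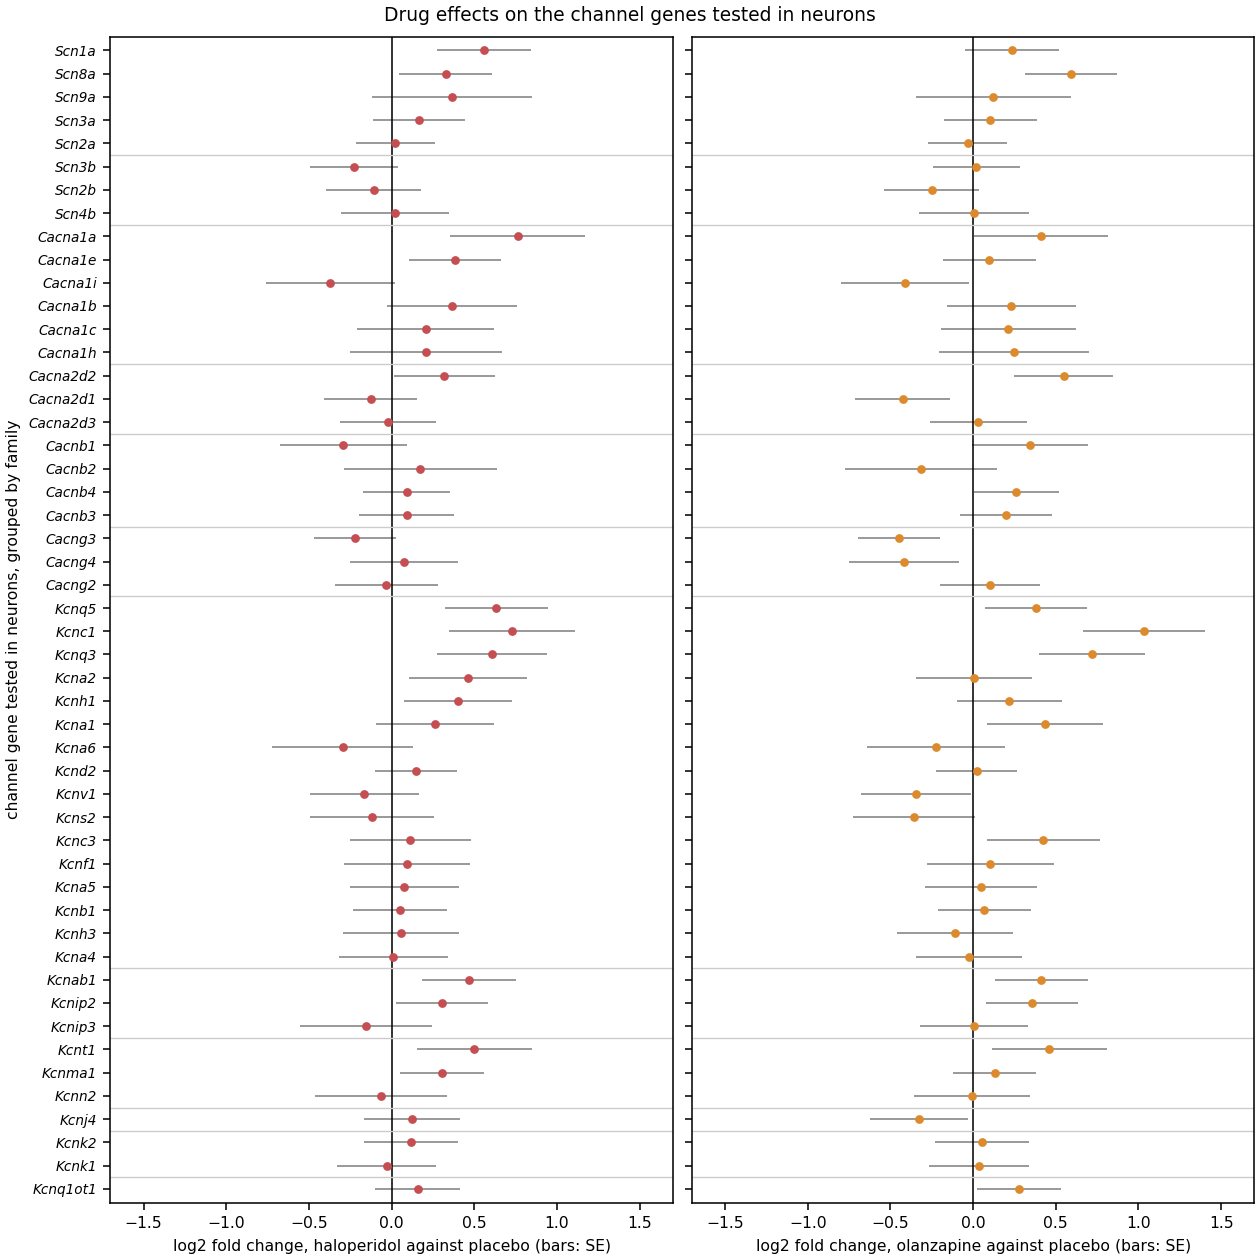
Log2 fold change of 50 of the 52 channel genes tested in neurons, haloperidol (left) and olanzapine (right) against placebo, grouped by family; bars are 1 standard error. Both panels use the same 5 placebo mice. The largest value is that of Cacna1a on the left (0.76) and of Kcnc1 on the right (1.03).

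Genes that work with these channels were examined alongside: 28 channel partners and sodium pump subunits, all in the table. They include Dpp6 and Dpp10, which join Kv4 channels, Fgf12 to Fgf14, which bind sodium channels, and the pump gene Atp1b1. In neurons 19 were tested. In any class or comparison 0 passed an adjusted p of 0.05 by edgeR. Of the 19, 11 had a positive log2 fold change under haloperidol and 12 under olanzapine, each against placebo, with medians of 0.02 and 0.05. Dpp6, at 252 ± 63.1 CPM in neurons, had log2 fold changes of -0.06 ± 0.26 and 0.07 ± 0.26.

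The class other, in which Kcne4 had the smallest p, gave the following values for these partners. For olanzapine against placebo 4 of the 7 partners tested there had an unadjusted p under 0.05, against 9.64% of all genes in that class, and the median of the 7 was 0.53. Rrad, a small GTPase that inhibits voltage-gated calcium channels, had 102, 257 and 213 CPM in olanzapine 3, 4 and 5, against 57.5, 40.1, 85.4, 64.3 and 50.4 CPM in placebo mice. Atp1b1, a sodium pump beta subunit, had 129, 110 and 110 CPM in olanzapine mice, against 40.2, 10.0, 42.7, 56.3 and 55.5 CPM in placebo mice. For both genes every olanzapine mouse lay above every placebo mouse, as was so for 4.01% of genes in that class. The log2 fold change of Rrad was 1.59 ± 0.37 (SE, adjusted p = 0.0671 by edgeR) and that of Atp1b1 1.57 ± 0.40 (adjusted p = 0.104 by edgeR). Without the shared cells the values were 1.59 and 1.49, with adjusted p of 0.159 and 0.267 by edgeR. Rrad passed the threshold in 5 of 26 settings and Atp1b1 in 1 of 25, with adjusted p by edgeR or DESeq2 of 0.00504 to 0.411 and 0.0206 to 0.605. Both were named after their values were seen. The counts were small, 6 to 38 UMIs in olanzapine mice and 2 to 11 UMIs in placebo mice. For haloperidol against placebo the log2 fold changes were -0.12 ± 0.46 (Rrad) and 1.02 ± 0.44 (Atp1b1). The summed smooth muscle markers given beside Kcne4 were higher than in placebo mice under olanzapine, and their median was higher under haloperidol. The part of these markers in the values was not tested.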

How the data were processed

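UMI counts per gene and cell, made by the authors from striatal 10x libraries and deposited as 1 table with a cell class per cell, were used as deposited. The notes that the submitters gave on processing name mm10, Seurat and Cell Ranger. No version of either tool is given in the sources used here. Of 5581 cells, 23 with over 20% mitochondrial UMIs and 81 doublets (Scrublet, per mouse) were removed, 38 of the doublets in olanzapine 2. Counts were summed per mouse and class (at least 10 cells per mouse, at least 3 mice per group). They were tested with edgeR 4.0.16 (R 4.3.3): filterByExpr, TMM scaling, robust quasi-likelihood F test, all 3 groups in 1 fit per class, Benjamini-Hochberg adjustment within class and comparison at 0.05. The procedure was tested on simulated data. DESeq2 1.42.0 was an alternative, with other filters, scalings, cell minimums and left-out mice. Levels by cell class are TMM-scaled CPM computed here. Levels in the new neuron clusters are CPM without that scaling. Neurons were clustered with scanpy 1.11.5 and leidenalg 0.10.2 (2000 variable genes, 30 components, 15 neighbours, resolution 1) without the channel genes. A cluster was named when at least 3 markers of a list were enriched 2-fold and its top 10 genes held more markers of that list than of others. Genes named in the drug comparisons were the 10 pairs with the smallest p in each, from which the text takes the first few, and the most abundant in neurons. Genes named by class were up to 6 leaders per class (at least 20 CPM) and further members of the same families, chosen after their values were seen. The channel genes, the partner list and these rules were chosen with earlier results of these data known. Each mouse was its own library. In neurons 1 UMI was worth 1.34 to 17.1 CPM, so low levels in small libraries are coarse. Intervals and limits cover counting error only. Coordinates are GRCm38. A few genes are not reported here and are left out of the plots, but they stay in the sums and counts.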

Additional observations from a re-analysis of the deposited data

Results flagged for a closer look

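In 110 sets of 4 or 5 mice, made from the genes named in the drug comparisons, 10 had a highest mouse far from the rest of its group by Dixon's criterion at the 95% level, which chance alone gives in about 1 in 20. Of the 10, 9 were in the 4 mice with the fewest cells, and the part of cell number in these values was not tested. In neurons of olanzapine 2, Kcnk2 stood at 906 CPM (75 UMIs) where the other olanzapine mice had 323 to 446 CPM, Kcnk1 at 471 CPM (39 UMIs) against 118 to 206 CPM, and Cacna2d1 at 217 CPM (18 UMIs) against 118 to 146 CPM. In neurons of olanzapine 1, Kcnc1 stood at 394 CPM (23 UMIs) against 101 to 130 CPM, Scn8a at 360 CPM (21 UMIs) against 141 to 181 CPM, and Scn3a at 274 CPM (16 UMIs) against 115 to 133 CPM. Cacna1e stood at 441 CPM (54 UMIs) in haloperidol 1, against 235 to 290 CPM in the other haloperidol mice. Cacnb4 stood at 239 CPM (19 UMIs) in haloperidol 2, against 129 to 155 CPM. In the class other, Kcne4 stood at 221 CPM (10 UMIs) in haloperidol 2, against 36.7 to 48.7 CPM. The remaining one was Kcnab1 in neurons of placebo 2, at 187 CPM (35 UMIs), against 110 to 130 CPM in the other placebo mice.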

How the results depend on the processing

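The count of channel genes called was 0 in each comparison and stayed 0 in 83 alternatives, leaving out each mouse in turn included (0 to 0). The exception was olanzapine against placebo without the filter on low counts, with 1 call of 601 pairs, Kcne4 in the class other. Calls over all genes moved more: 7, 70 and 8 without that filter, and 2, 17 and 0 by DESeq2, for haloperidol against placebo, olanzapine against placebo and haloperidol against olanzapine. Without the shared cells of placebo 5 they were 1, 0 and 0, against 2, 10 and 0 with them. For the channel genes tested in neurons, the median log2 fold change against placebo ran from -0.03 to 0.52 under haloperidol. Under olanzapine it ran from -0.08 to 0.42. The haloperidol minimum was that without placebo 4. The highest values (0.52 and 0.42) came where each mouse was summed over its classes, so they are not neuronal values. The part of the mix of classes in them was not tested. For single genes, 780 alternatives kept their side of the threshold, 1 (Kcne4, above) crossed it and 0 reversed. Among channel partners, Rrad and Atp1b1 in the class other crossed it in 6 of their alternatives, chosen after seeing the data, and kept it in 45. Class levels stayed within 1 SD in 138 of 138 alternatives. No paired analysis was possible because the mouse numbers do not repeat between groups. With few cells per mouse and class, 58 genes could not be tested, and single-gene standard errors near 0.33 leave small differences undetected.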

Other observations

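In an unnamed neuron cluster of 12 cells from 5 mice led by Ecel1, Slc5a7 and Slc18a3, the two-pore channel gene Kcnk9 stood at 340 CPM and the alpha2delta gene Cacna2d2 at 400 CPM in pooled counts.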
